A study of Mus musculus with 2 samples.

Results

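The genes described here are 38 genes of glycolysis and of the response to low oxygen, chosen by symbol from a list of transporters, enzymes, oxygen sensors and genes that hypoxia is known to induce. All 38 were found on the array through the RefSeq accession of a probe, out of 20433 genes with a symbol there, and together they had 61 probes. The samples were 2 lines of ATDC5, a mouse chondrocyte cell line, each carrying a lentiviral transgene. The first line overexpressed HES1, a repressor of transcription that acts downstream of Notch, by its label. The second overexpressed the fluorescent protein GFP and served as the control. Both were kept for 3 days as monolayers on 60 mm dishes, and total RNA of each was hybridised to 1 single-colour Agilent array. The labels do not say whether a line was 1 clone or a pool, or from which species the HES1 sequence came, and no promoter is named for either transgene. With 1 array per line there was no replicate, no test was run, and differences between the lines cannot be told apart from differences between any pair of cultures.

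Glycolysis turns glucose into pyruvate in the cytosol and yields ATP without oxygen. Cartilage has no blood vessels, and chondrocytes are known to rely on this pathway and on the hypoxia-inducible factors. These factors are stable when oxygen is low, because the prolyl hydroxylases that mark their alpha subunits for destruction need oxygen. Once stable, they bind DNA at a core of ACGTG or GCGTG and raise the transcription of glucose transporters, glycolytic enzymes, angiogenic factors and, in a feedback, of the hydroxylases themselves.

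The promoter windows of the members are shown because both HES1 and the hypoxia-inducible factors act by binding near gene starts. RefSeq windows of 300 bases (GRCm38.p6, 250 bases before to 50 after a start) were held for 35 of the 38 genes (not for Ndrg1, Slc2a3 and Epas1), 54 windows in all. The 4 printed windows belong to Hk2 and Vegfa, which were higher in the HES1 line, to Aldoc, which was lower, and to Ldha, whose window held the most ACGTG matches. They were chosen after the values were seen, and where a gene had several starts the window furthest upstream is given. Each runs 5′ to 3′ along the gene, and capitals mark ACGTG or its other strand CACGT. The Hk2 window lay at chr6:82774405-82774704 on the minus strand, Vegfa at chr17:46032328-46032627 on the minus strand, Aldoc at chr11:78322823-78323122 on the plus strand and Ldha at chr7:46845554-46845853 on the plus strand.
Hk2: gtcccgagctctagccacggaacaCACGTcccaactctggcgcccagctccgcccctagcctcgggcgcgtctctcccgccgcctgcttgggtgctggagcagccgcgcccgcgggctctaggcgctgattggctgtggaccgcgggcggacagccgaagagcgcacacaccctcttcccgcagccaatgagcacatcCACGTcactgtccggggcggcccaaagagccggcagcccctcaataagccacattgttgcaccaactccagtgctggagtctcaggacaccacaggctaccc
Vegfa: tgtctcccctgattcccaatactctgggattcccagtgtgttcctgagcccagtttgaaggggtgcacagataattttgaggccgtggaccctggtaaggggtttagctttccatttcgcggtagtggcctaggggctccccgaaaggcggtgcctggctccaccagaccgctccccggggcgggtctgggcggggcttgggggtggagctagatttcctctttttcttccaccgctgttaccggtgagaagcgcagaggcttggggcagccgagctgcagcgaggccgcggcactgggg
Aldoc: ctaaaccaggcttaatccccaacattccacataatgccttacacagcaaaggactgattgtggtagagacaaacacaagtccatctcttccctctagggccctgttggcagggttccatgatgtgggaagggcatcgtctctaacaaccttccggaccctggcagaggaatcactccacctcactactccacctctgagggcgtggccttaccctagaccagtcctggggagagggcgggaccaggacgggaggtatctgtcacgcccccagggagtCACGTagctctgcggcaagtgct
Ldha: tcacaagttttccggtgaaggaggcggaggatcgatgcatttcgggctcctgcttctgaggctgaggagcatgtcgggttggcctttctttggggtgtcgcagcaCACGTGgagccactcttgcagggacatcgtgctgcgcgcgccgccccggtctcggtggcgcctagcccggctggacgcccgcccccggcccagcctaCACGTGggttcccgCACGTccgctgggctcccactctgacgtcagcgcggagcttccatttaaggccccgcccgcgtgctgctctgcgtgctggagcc

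ACGTG on either strand was present in 28 of the 54 windows of the members (51.9%), against 19.6% of the 32851 windows of all genes, measured here or not. The other core, GCGTG, was in 55.6% of the members' windows and in 32.4% of all windows. Windows of 1 gene can overlap, and each was counted. The members were listed in part as genes that hypoxia is known to induce, so these shares are no independent finding. Ldha had 5 ACGTG matches in 3 places, since the palindrome CACGTG counts once on each strand. Hk2 had 2, Aldoc had 1 and the printed Vegfa window had 0, while the window of another Vegfa start had 1. A count of 0 says only that these letters were not in this stretch. Sites that HES1 is known to bind were searched in the same way. The N box CACNAG was in 50% of the members' windows and 42.5% of all windows, and the class C site CACGCG in 25.9% and 9.27%. CACGCG contains CACGC, the other strand of GCGTG, so each window with a class C site was already counted for GCGTG. Its shares are not separate from those of GCGTG. The members' windows had a median GC content of 60.7%, against 52.7% over all windows. Its part in these shares was not tested. A match is a description of the letters, and no binding was measured.

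The transgene could not be followed. The only Hes1 probe gave scaled signals of 10.3 in the HES1 line and 10.2 in the GFP line and was not well above background in either. It need not match the transgene, so it checks neither label. Signals are scanner units after each array was set to the same 75th percentile of 1057.2. They can be compared between the lines for a probe but not between probes. The share of spots well above background was 56.6% on the HES1 array and 54.6% on the GFP array, and 8 spike-in controls differed between the arrays by -0.08 to 0.10 on the log2 scale. The number of arrays limits the precision. Of the 61 probes, 57 were well above background on both arrays, 3 on 1 array and 1 on neither. Each of the 38 genes had at least 1 probe above background on an array. For Egln3 and Adm each probe passed through 1 array only, and its signal on the other array was not well above background.

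Most of the 38 genes differed little between the lines, and those that did went both ways. With each gene taken at its brightest probe, 3 were at least 2-fold higher in the HES1 line (Hk2, Vegfa and Egln3) and 2 were at least 2-fold lower (Aldoc and Pfkfb1). The other 33 lay within 2-fold. Higher genes made up 7.89% of the members, against 11.1% of the 14273 genes measured, and lower genes 5.26%, against 4.95%. In either direction, 16.0% of all measured genes were past 2-fold. These shares were near or below the background. That background includes genes detected on 1 array only. Among genes well above background on both arrays, 2 of 36 members were higher and 2 lower, against 920 and 577 of 13076 genes. The median log2 difference, HES1 line minus GFP line, was -0.12 over the members and -0.06 over all measured genes. The scanner's own error for a log2 difference was 0.20 for most members, and 24 of the 38 genes (63.2%) differed by more than their error, compared with 67.0% of all measured genes. The middle 50% of the members ran from -0.39 to 0.09, and that of all genes from -0.38 to 0.33.

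**Figure D1:**
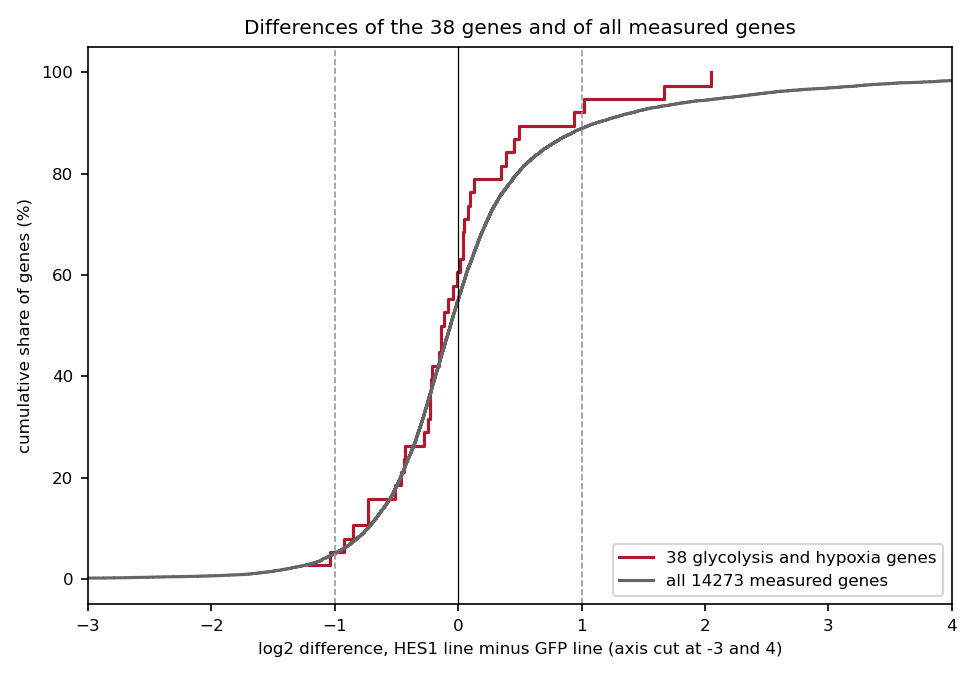
Cumulative share of genes (%) by log2 difference, HES1 line minus GFP line, for the 38 glycolysis and hypoxia genes (red) and for all 14273 measured genes (grey), each gene at its brightest probe on 1 array per line; dashed lines mark 2-fold. The curves run close together below 0, and the red curve ends at 2.05 (Hk2), where the grey curve has a longer tail.

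Transporters that bring glucose into the cell and carry lactate across its membrane were all within 2-fold of each other in the 2 lines. Slc2a1, which encodes the widespread glucose transporter GLUT1, had a signal of 8505 in the HES1 line and 7768 in the GFP line. Slc2a3, which encodes the high-affinity transporter GLUT3, had 1321 in the HES1 line and 1537 in the GFP line. Neither pair was far apart, with log2 differences of 0.13 and -0.22. The monocarboxylate transporter gene Slc16a1 (MCT1) gave 177.9 in the HES1 line and 166.4 in the GFP line. Slc16a3, which encodes the lactate exporter MCT4 and is known as a hypoxia target, gave 86.6 in the HES1 line and 123.8 in the GFP line by its brighter probe, and 80.2 in the HES1 line and 84.1 in the GFP line by the other. Its 2 probes thus differed by -0.51 and -0.07, with errors of 0.27 and 0.29.

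The first step of glycolysis, the phosphorylation of glucose, had the highest difference of the set. Hk2 encodes hexokinase II, the inducible isoform of muscle, fat and growing cells, and had a signal of 5192 in the HES1 line and 1255 in the GFP line. That was 4.14-fold higher, a log2 difference of 2.05 with an error of 0.20, at the 94.6th percentile of all measured genes. Hk2 was read by 1 probe with 1 spot kept per array. Its paralog Hk1, the hexokinase of most tissues, had 31385 in the HES1 line and 22285 in the GFP line by its brighter probe. Both Hk1 probes were higher in the HES1 line but within 2-fold, at 0.49 and 0.60.

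At the isomerisation and the committed step no gene was 2-fold apart. All 3 probes of Gpi1, glucose-6-phosphate isomerase, were lower in the HES1 line, from -0.59 to -0.43, with 41681 in the HES1 line and 56210 in the GFP line by the brightest. The phosphofructokinase isoforms went different ways. Pfkm, the muscle isoform, was measured by 10 spots on each array, whose signals ran from 4816 to 5157 with a median of 5028 in the HES1 line, and from 7869 to 8686 with a median of 8288 in the GFP line. The spots did not overlap between the arrays, and the log2 difference of -0.73 had an SD of 0.04 over the 10 spot pairs, which share 1 RNA per line and are not replicates. Pfkp, the platelet isoform, had 1475 in the HES1 line and 1161 in the GFP line, with differences of 0.35 and 0.05 by its 2 probes. Pfkl, the liver isoform, stood at -0.21.

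Aldolase splits the 6-carbon sugar, and its 2 genes behaved unlike each other. Aldoc, the isoform known from brain and as a hypoxia target, had a signal of 3214 in the HES1 line and 7438 in the GFP line. It was 2.31-fold lower in the HES1 line, at -1.21 the lowest of the 38. Aldoc too was read by 1 probe with 1 spot kept per array. Aldoa, the main isoform of muscle and most cells, had 130482 in the HES1 line and 123604 in the GFP line, a difference of 0.08 within its error of 0.20. In the lower part of the pathway every gene lay within 2-fold. Gapdh, often used as a loading control, had 7 probes with differences from -0.14 to -0.07, the brightest at 431783 in the HES1 line and 466815 in the GFP line. Triose phosphate isomerase (Tpi1, both probes at -0.08), phosphoglycerate kinase (Pgk1, -0.14), phosphoglycerate mutase (Pgam1, -0.01) and pyruvate kinase (Pkm, 0.04) all lay within their errors. The signs of Tpi1, Gapdh, Pgk1 and Pgam1 changed with the scaling. Enolase differed a little more: Eno1, the general form, stood at -0.23, and Eno2, the form known from neurons, at 0.38 with 2254 in the HES1 line and 1727 in the GFP line. Many of these genes have near-identical processed copies in the mouse genome, so that 1 probe could catch RNA of several. Over the 15 enzymes, 13 lay within 2-fold, 1 was higher and 1 lower. Their median of -0.08 became 0.04 after quantile normalization, 0.04 under normexp and 0.12 after a loess fit.

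**Figure D2:**
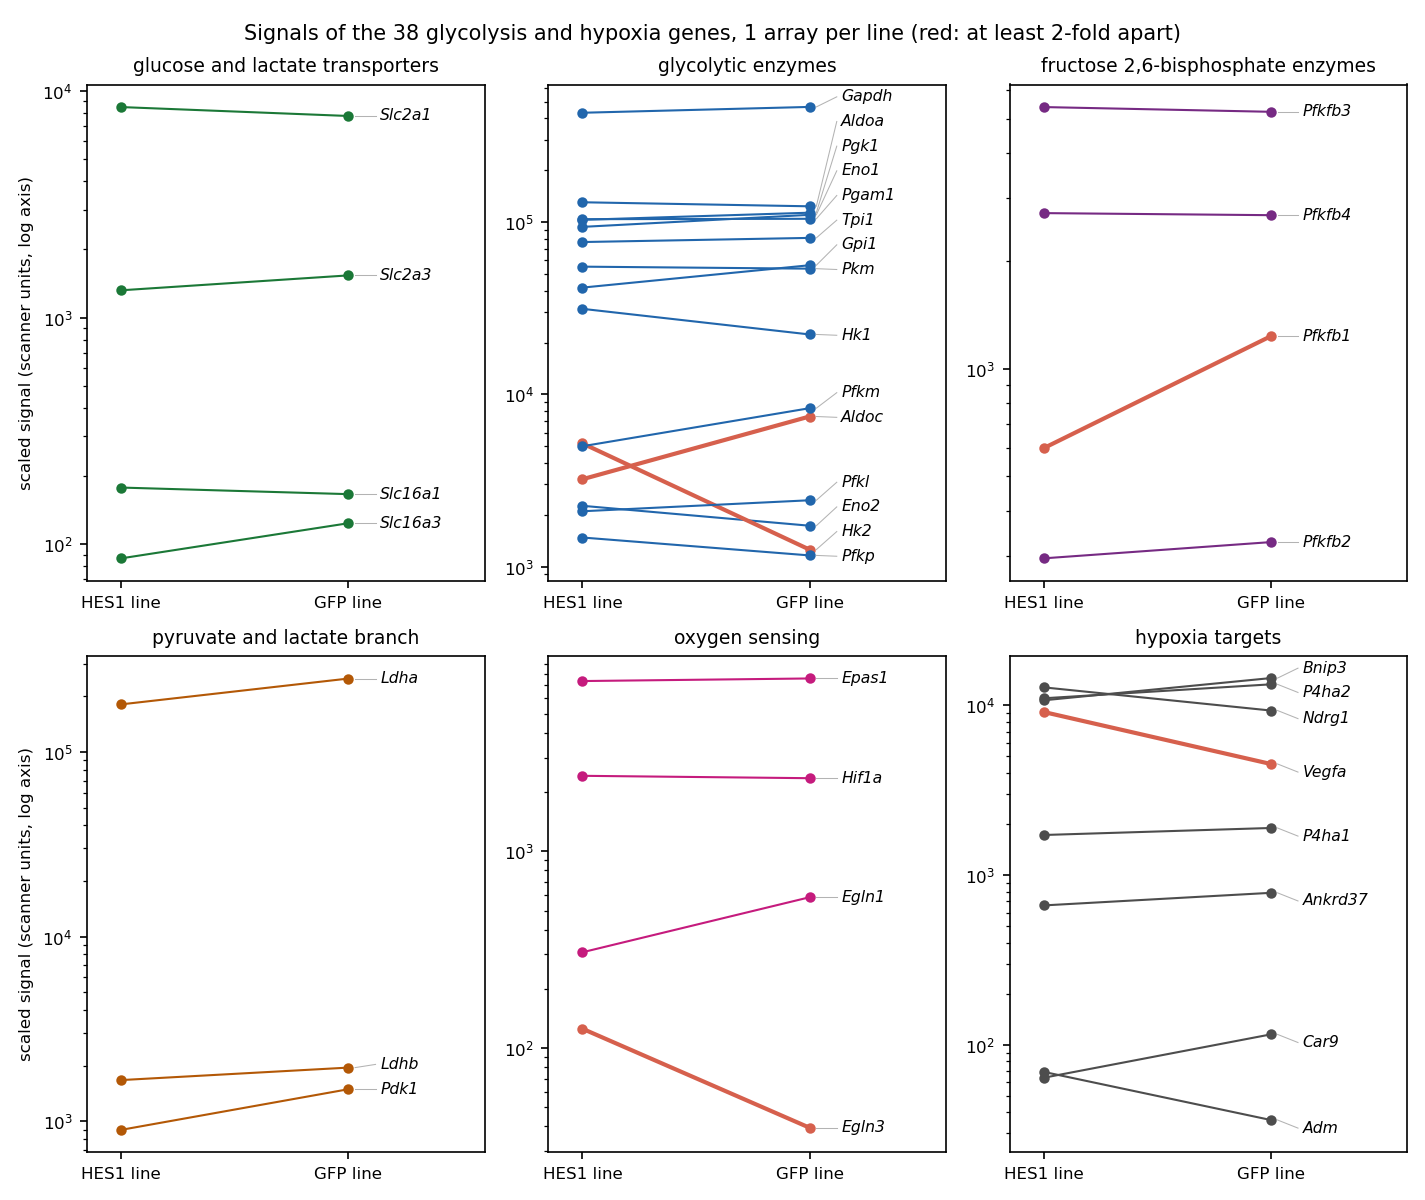
Scaled signal (scanner units, log axis) of each gene at its brightest probe, HES1 line left and GFP line right, 1 array per line, in 6 panels by role; red lines are at least 2-fold apart, and heights of different genes cannot be compared. Hk2 stands at 5192 in the HES1 line and 1255 in the GFP line, Aldoc at 3214 in the HES1 line and 7438 in the GFP line, and 33 of the 38 genes are within 2-fold.

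The bifunctional enzymes that make and break fructose 2,6-bisphosphate, the main activator of phosphofructokinase, were within 2-fold apart from 1 isoform. Pfkfb1, known from liver and muscle, had 599.1 in the HES1 line and 1232 in the GFP line. It was 2.06-fold lower (-1.04, error 0.21), so that its distance from the 2-fold line was smaller than its error, and it fell short of 2-fold after a loess fit (-0.90) and under normexp (-0.91). Pfkfb3, the isoform of proliferating cells and a hypoxia target, had 5391 in the HES1 line and 5229 in the GFP line. Pfkfb4 stood at 0.02 by the probe that was detected, and its other probe was above background on neither array. Pfkfb2, known from heart, stood at -0.15.

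At the end of the pathway the 3 members that steer pyruvate were lower in the HES1 line, none of them 2-fold. Over all measured genes, 7847 of 14273 were lower by any size. Ldha, which encodes the subunit of lactate dehydrogenase that favours lactate formation, was lower by each of its 3 probes. They gave 181164, 24740 and 5135 in the HES1 line, against 249958, 37046 and 7840 in the GFP line, with differences of -0.46, -0.58 and -0.61. Ldhb, the subunit of oxidative tissues, stood at -0.22. Pdk1, which encodes a kinase that inactivates pyruvate dehydrogenase, had 896.4 in the HES1 line and 1488 in the GFP line. Its difference was -0.73, at the 9.97th percentile of all genes.

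**Figure D3:**
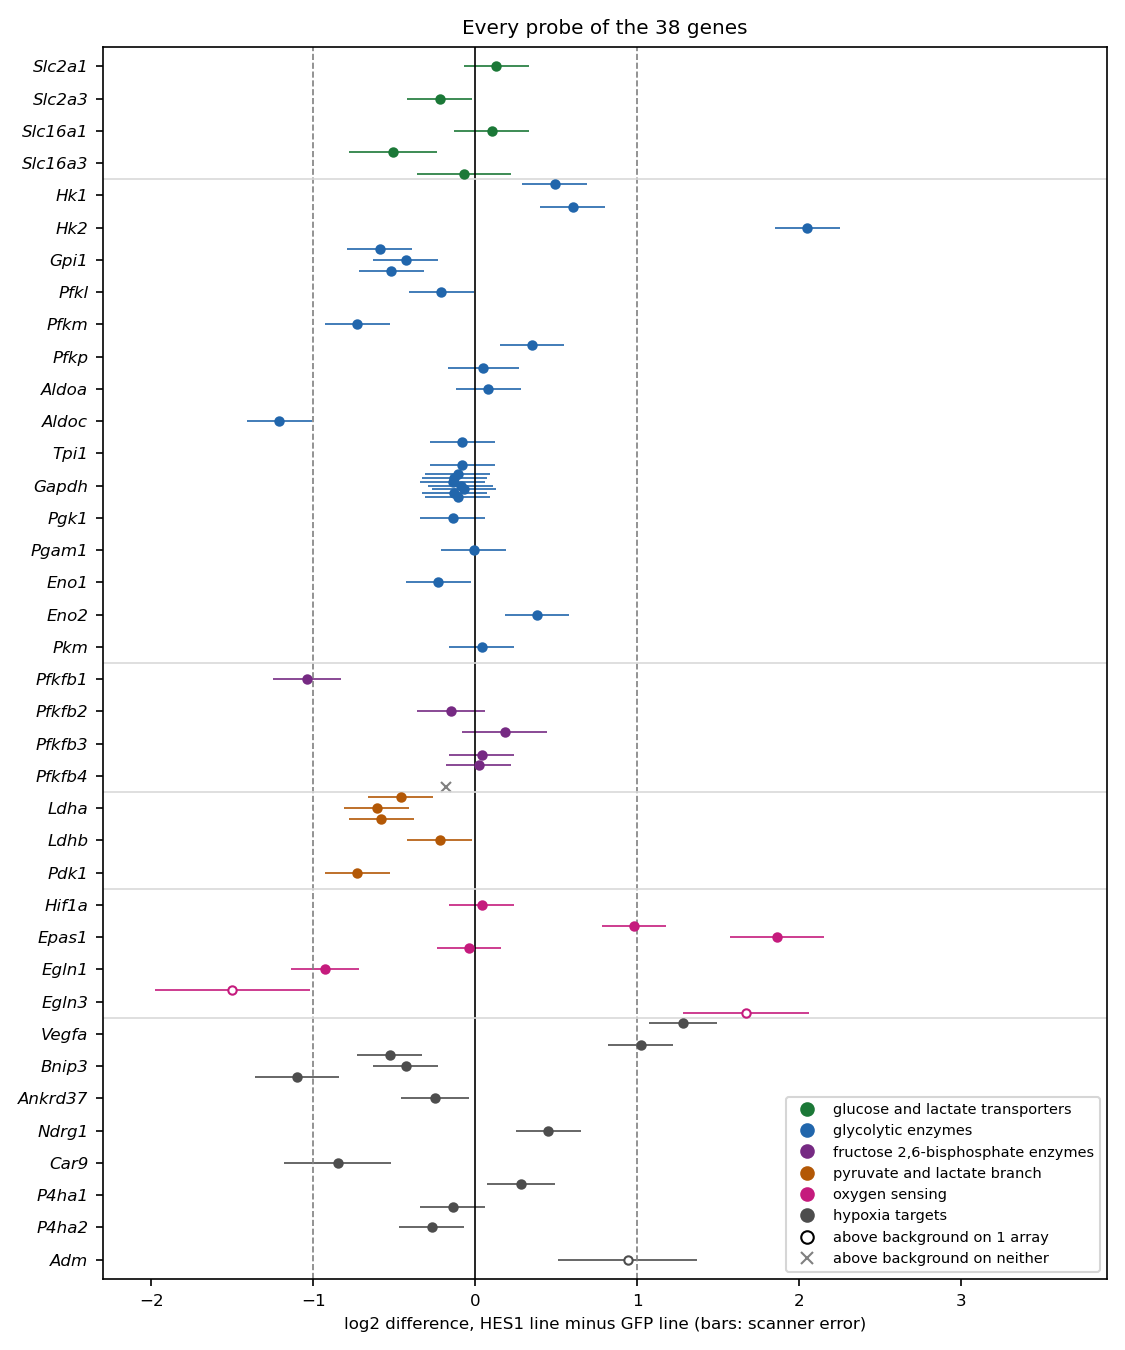
Log2 difference, HES1 line minus GFP line, of each of the 61 probes, with the scanner's error as bars and colours by role; open points were well above background on 1 array and crosses on neither, and dashed lines mark 2-fold. The 7 Gapdh probes lie between -0.14 and -0.07, while the Egln3 probes lie at -1.50 and 1.67 and the Epas1 probes between -0.04 and 1.86.

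Of the oxygen-sensing genes, the alpha subunit genes and the hydroxylase genes included some whose probes disagreed. Hif1a, which encodes the alpha subunit regulated mainly at the protein level, had 2425 in the HES1 line and 2358 in the GFP line, a difference of 0.04. Transcript level says little of that protein's amount. Epas1, which encodes HIF-2 alpha and is known to act in hypertrophic cartilage, had 7356 in the HES1 line and 7583 in the GFP line by its brightest probe, a difference of -0.04. The other Epas1 probes were higher in the HES1 line, at 2087 against 1061 in the GFP line and at 233.2 against 64.2 in the GFP line, differences of 0.98 and 1.86. All 3 carry the same accession, their places along the transcript are not given in the files, and no value here says which of them reads the gene best. The median over probes gave 0.98.

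Egln1, which encodes PHD2, the main oxygen-sensing hydroxylase, was lower in the HES1 line, with 307.0 in the HES1 line and 584.7 in the GFP line. Its difference of -0.93 stayed just within 2-fold. Egln3, which encodes PHD3, a hydroxylase that hypoxia strongly induces, gave no direction. One probe had 125.4 in the HES1 line and 39.3 in the GFP line, where it was not well above background, and so was at least 3.19-fold higher. The other had 29.0 in the HES1 line, not well above background, and 82.0 in the GFP line, and so was at least 2.10-fold lower. Its place among the 3 higher genes therefore rests on which probe is brighter. Under the median over probes its value was 0.09, and the higher genes numbered 2.

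Among genes known as targets of the hypoxia-inducible factors, only Vegfa was past 2-fold by its brightest probe, and Adm and Car9 came close. Vegfa encodes the vascular growth factor that draws vessels into hypertrophic cartilage. One of its probes, spotted in 2 places, gave 9140 and 9161 in the HES1 line and 4476 and 4561 in the GFP line. The log2 difference was 1.02, or 2.03-fold, and the other probe, at 1522 in the HES1 line and 626.3 in the GFP line, gave 1.28, or 2.43-fold. Each probe was past 2-fold, the first by less than its error of 0.20. Adm, which encodes the vasodilator peptide adrenomedullin, had 69.2 in the HES1 line and 36.0 in the GFP line, where it was not well above background, and was at least 1.82-fold higher. Ndrg1, a stress-induced gene of differentiating cells, had 12778 in the HES1 line and 9331 in the GFP line (0.45).

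Other targets were lower in the HES1 line. All 3 probes of Bnip3, which encodes a mitophagy receptor, were lower: 10718 in the HES1 line and 14488 in the GFP line by the brightest (-0.43), then -0.53, and -1.10 by a probe with 83.3 in the HES1 line and 178.8 in the GFP line. Car9, which encodes a membrane carbonic anhydrase widely used as a hypoxia marker, had 63.9 in the HES1 line and 115.1 in the GFP line. Its difference of -0.85 had an error of 0.33 and ran from -1.0 to -0.35 across scalings. Ankrd37, a small ankyrin repeat gene, stood at -0.25. The prolyl 4-hydroxylase subunits that modify collagen were closer to 0: P4ha2 stood at -0.27, and P4ha1 at -0.14 and 0.28 by its 2 probes. Over these 8 genes, 7 lay within 2-fold, 1 was higher and 0 were lower, and the median was -0.19.

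At a threshold of 1.5-fold, 6 genes were lower in the HES1 line (Aldoc, Pfkfb1, Egln1, Car9, Pfkm and Pdk1) and 4 were higher (Hk2, Egln3, Vegfa and Adm). That was 15.8% lower, against 14.6% of all measured genes, and 10.5% higher, against 17.4%. Both shares were again near or below the background. Of the 4 higher genes, Egln3 and Adm were well above background on the HES1 array only, by the probe used. The other Egln3 probe stood at -1.50. No 1.5-fold count was made among genes well above background on both arrays. Of the 13 members with more than 1 detected probe, 6 had all their differences within 0.25 of each other. Over the array, 2278 of 3718 such genes did. Among the members, Egln3 (3.17), Epas1 (1.90) and Bnip3 (0.67) had the widest spans. The median span was 0.26 for the 13 members and 0.18 for the 3718 genes.

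**Figure D4:**
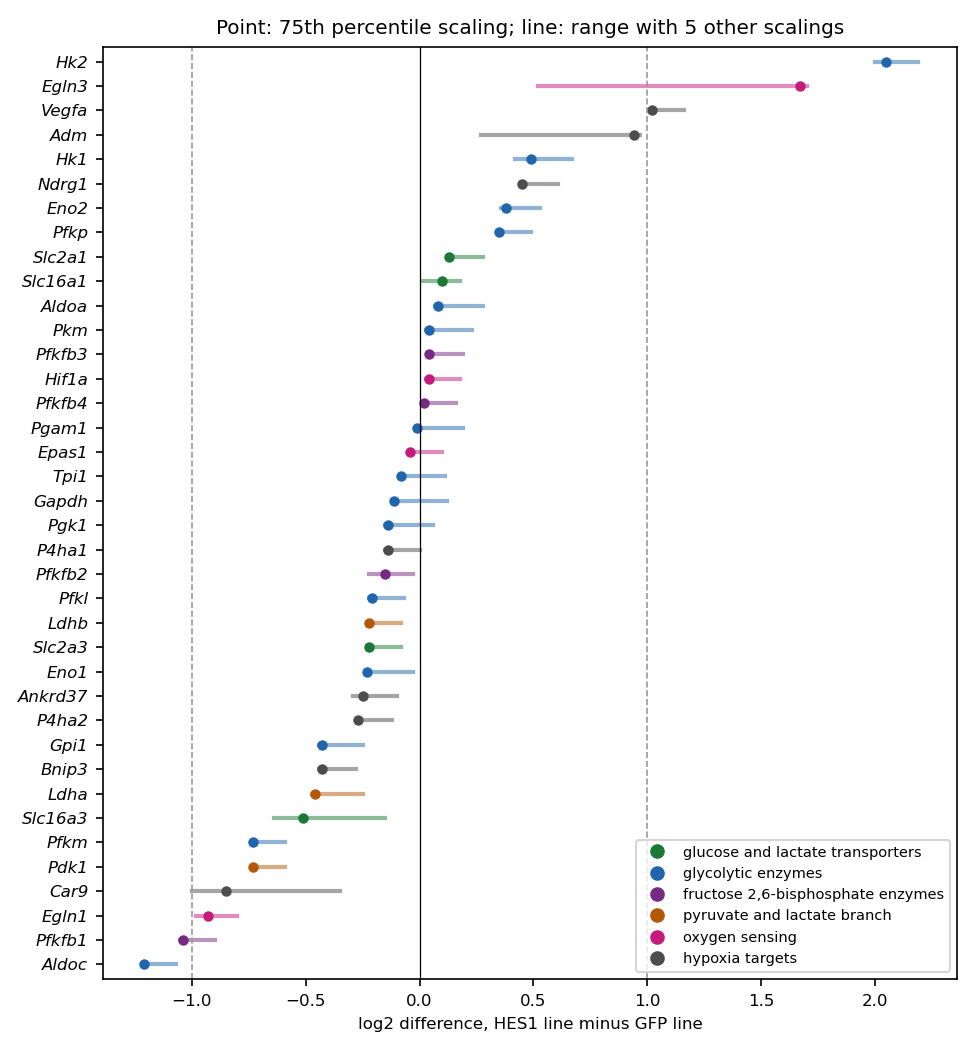
Log2 difference, HES1 line minus GFP line, of each of the 38 genes at its brightest probe (points, colours by role), with lines for the range when 5 other scalings are added; dashed lines mark 2-fold. Hk2 stays between 2.0 and 2.19 and Aldoc between -1.22 and -1.07, while Egln3 runs from 0.52 to 1.70.

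Across 5 other scalings of the arrays, 32 of the 38 genes kept their sign, and the median range of a gene's difference was 0.17. The same count was not made over all measured genes, so it does not say whether the members were unusually stable. Among the 5 scalings, the median and all-spot scalings move every gene by the same amount. The 6 that changed sign were Tpi1, Gapdh, Pgk1, Pgam1, Epas1 and P4ha1, whose main values were all smaller than their errors. The loess fit moved the median of all genes from -0.06 to 0.07, and the median of the members moved with it, from -0.12 to 0.08. The members' median thus stayed near that of all genes under both scalings.

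A second list held 101 other genes of glucose metabolism and of the hypoxia response, of which 91 were measured. Of these, 74 lay within 2-fold, 10 were at least 2-fold higher in the HES1 line (11%, against 11.1% of all measured genes) and 7 were lower by as much (7.69%, against 4.95%). The median was -0.01. With genes above background on 1 array set at their bound, 9 were higher and 7 lower. Only 4 were higher and 1 was lower under normexp. The 8 genes of the pentose phosphate pathway, which branches off at glucose 6-phosphate, were all within 2-fold, with Tkt (transketolase) the lowest at -0.69. Of 13 genes for the entry of pyruvate into mitochondria and its conversion there, 4 were above 0 and 9 below, and 12 were within 2-fold. The exception was Pdk2, a second pyruvate dehydrogenase kinase, with 584.2 in the HES1 line and 1189 in the GFP line (-1.03).

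Of the 5 other glucose-handling genes past 2-fold, 4 were above background on 1 array only. Fbp1, which encodes a gluconeogenic phosphatase that opposes phosphofructokinase, had 34.8 in the HES1 line, not well above background, and 196.4 in the GFP line, at least 5.04-fold lower. Gpd1, cytosolic glycerol-3-phosphate dehydrogenase, had 184.7 in the HES1 line and 39.2 in the GFP line, at least 4.71-fold higher. Ldhd, which acts on D-lactate, was at least 2.95-fold higher, and Pygl, liver glycogen phosphorylase, at least 2.02-fold higher. Pgm2l1, a sugar phosphate mutase, was 2.0-fold lower at 476.7 in the HES1 line and 954.5 in the GFP line.

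The further oxygen-sensing genes were within 2-fold in 10 of 10 cases, with the lowest value for Vhl, whose product binds hydroxylated HIF for degradation (3838 in the HES1 line and 7263 in the GFP line, -0.92). Of 35 measured genes known to be induced by hypoxia, 24 lay within 2-fold, 7 were higher (20%, against 11.1% of all measured genes) and 4 lower (11.4%, against 4.95%). The list's median was 0.07. Angptl4, which encodes an inhibitor of lipoprotein lipase, had 8182 in the HES1 line and 882.3 in the GFP line, 9.27-fold higher. Car12, another carbonic anhydrase gene, was at least 2.18-fold higher, and Edn1 (endothelin 1) at least 1.73-fold. Both were well above background on the HES1 array only. Edn1 is among the 7 by its log2 difference of 2.89, while its bound falls short of 2-fold. The lower genes were Igfbp3, a carrier of insulin-like growth factors (3.67-fold), Ppp1r3c, which targets a phosphatase to glycogen (2.65-fold), Narf (2.07-fold) and Zfp395 (2.09-fold). The detected probes of Zfp395 disagreed in sign: the brightest had 62.2 in the HES1 line and 130.2 in the GFP line (-1.07), and another had 75.5 in the HES1 line and 58.5 in the GFP line (0.37). Most of these genes also answer to signals other than oxygen.

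**Figure D5:**
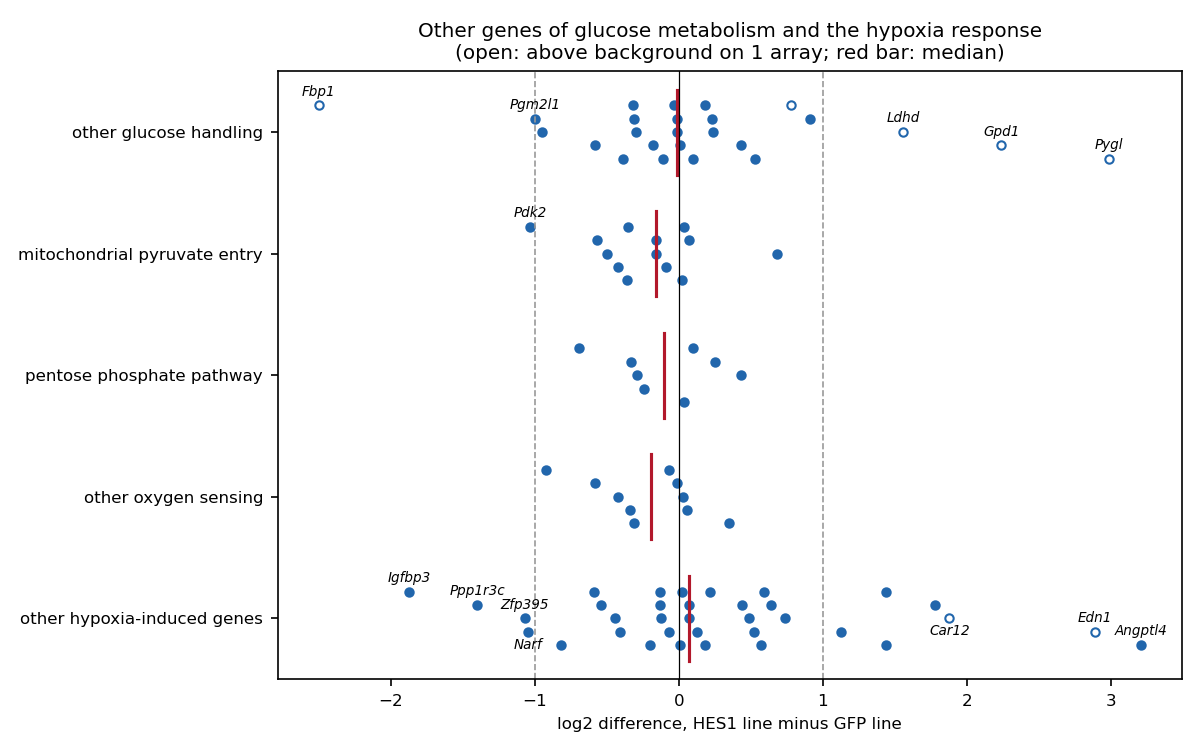
Log2 difference, HES1 line minus GFP line, of 91 further genes of glucose metabolism and the hypoxia response in 5 lists, 1 array per line; open points were well above background on 1 array, red bars are medians, dashed lines mark 2-fold and the genes past it that the text describes are named. The pentose phosphate and oxygen-sensing lists lie within 2-fold, and Angptl4 is the highest at 3.21.

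Marker levels were set beside these values. Of 9 chondrocyte markers, 6 were measured, Col2a1 and Sox9 among them, and Matn3, Hapln1 and Snorc were not well above background on either array. Their summed signal was 11983 in the HES1 line and 19878 in the GFP line, most of it Col2a1 (7379 in the HES1 line and 13796 in the GFP line). The median difference was -0.63, from -0.90 to 0.10, with Sox9 at -0.19. All 4 measured osteoblast markers of 6 were lower in the HES1 line (summed signal 8291 in the HES1 line and 15839 in the GFP line, from -1.66 to -0.83). Macrophage markers were measured for 4 of 8 genes (25335 in the HES1 line and 50214 in the GFP line, most of it Itgam), with Tyrobp, Lyz2 and Adgre1 not above background. Endothelial markers were measured for 3 of 7 (10072 in the HES1 line and 8885 in the GFP line, most of it Kdr), from -0.15 to 1.81, with Cdh5, Tek and Emcn not above background. The highest was Vwf, with 1214 in the HES1 line and 345.8 in the GFP line, 3.51-fold higher. Skeletal muscle markers were measured for 2 of 5, adipocyte markers for 1 of 5 and fibroblast markers for 6 of 6, with medians of 0.19, -0.70 and -0.02. In bulk RNA, fewer cells of a type and less RNA per cell cannot be told apart. The part of these markers in the differences of the glycolysis and hypoxia genes was not tested.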

How the data were processed

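Gene expression was measured on 2 single-colour Agilent arrays of 1 mouse design (annotated on mm9, per the file headers), both on the same slide, with Cy3-labelled cRNA made from 0.1 µg of total RNA per the labels' protocols. Agilent Feature Extraction 10.10.1.1 read the images, per the submitters' processing notes. The authors deposited an intensity per spot that the software had background-corrected and detrended but not scaled across arrays, per the file headers. Their deposited value table equalled that intensity times 1 factor per array (1.53 for HES1, 1.45 for GFP), with medians of 76.6 and 67.7, which settles that it is linear and not centred; a single-colour signal has no direction.

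Values here are log2 of the processed intensity minus the array's 75th percentile over 59305 spots that are not controls. Spots with an outlier flag on either array (1053) were left out, 0 were saturated, and spots of a probe were averaged. Accessions were named through a RefSeq table of GRCm38.p6: 26869 of 54948 probes had a symbol. Of the probes detected above background in 1 line or both, the brightest stands for the gene. A gene counts as higher or lower at 2-fold. Where a probe was well above background on 1 array, its fold is a lower bound, set against the higher of the dim signal and the lowest signal well above background there (38.97 for HES1, 38.15 for GFP). The error given is the scanner software's own, of both arrays combined, and holds no difference between cultures.

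With 1 array per line there was no test. The members, lists and rule for named genes (each member, and of other genes at most 4 past 2-fold each way per list) were chosen with earlier results of these data known. A gene that the rule would name is not reported here. The alternatives were quantile, median, loess (span 0.3), normexp (offset 50, on median spot and background signals) and all-spot scalings, the deposited values, other filters, the median over probes, bounds, and thresholds of 1.5-fold and 3-fold. Python 3.11.15, R 4.3.3 and limma 3.58.1 were used. The counting was tested on shifts of known size added to bright genes of the GFP array. That does not test dim genes or differences between cultures.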

Additional observations from a re-analysis of the deposited data

How the results depend on the processing

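No paired analysis was possible because each line had 1 array, and leaving out an array leaves no comparison. Of 416 values of single members under the alternatives, 407 stayed within the scanner's error of the main value, 4 crossed the 2-fold line and 0 of those past 2-fold turned sign. Many of the 416 could hardly move. The deposited values and the median and all-spot scalings shift all genes by nearly the same small amount. The filters, bounds and median over probes return the main value for most members, 24 of which had 1 probe. The 407 is therefore no measure of robustness. The members at least 2-fold higher numbered 3, with 2 to 4 under the alternatives. The members at least 2-fold lower numbered 2, and became 1 after a loess fit, 1 under normexp, 6 at 1.5-fold and 0 at 3-fold. The members' median of -0.12 became 0.08 after the loess fit. The medians of the glycolytic enzymes and of the hypoxia targets moved by less than the scanner's error under each alternative, though that of the enzymes changed sign. The other pathway genes at least 2-fold higher numbered 10, and became 4 under normexp, 5 among genes detected in both lines, 16 at 1.5-fold and 6 at 3-fold. Those at least 2-fold lower numbered 7, and became 4 after the loess fit, 1 under normexp, 12 at 1.5-fold and 2 at 3-fold. Over all genes, 1582 higher and 707 lower became 852 and 342 under normexp, 920 and 577 among genes detected in both lines, 2480 and 2084 at 1.5-fold and 997 and 178 at 3-fold. The thresholds and the filter change these counts by construction, and for the loess fit and normexp the cause was not tested. Dim probes limit what can be read of Egln3, Adm, Car9 and Slc16a3, whose values moved by more than their error under normexp.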
